A study of Homo sapiens with 9 samples.

Results

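Messenger RNA of OPM-1 cells, an established human plasma cell myeloma line, was compared between the 3 libraries that carry the KMT2D guide and the 6 libraries that do not. Genes were chosen by 1 rule: the levels in all 3 KMT2D-guide libraries had to lie above the highest, or below the lowest, of the other 6. Of 13244 genes with a symbol and enough reads to be tested, 411 met it. Over all 38450 named gene rows, with or without enough reads, 591 did.

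The 9 libraries form 3 groups of 3, labelled as independent biological replicates. Cells of the gLuc group stably expressed an RNA directed at luciferase, which serves as the control. Those of the gFBXW7 group carried one directed at FBXW7, and those of the gFBXW7 + gKMT2D group, written here as gFBXW7_gKMT2D, carried RNAs directed at FBXW7 and at KMT2D. All groups have the genotype label WT and were grown in RPMI with fetal bovine serum. The 3 KMT2D-guide libraries therefore all carry the FBXW7 guide as well, while 3 of the 6 libraries they are compared with carry it. No group has the KMT2D guide alone, so an effect of that guide without the FBXW7 guide cannot be read from these libraries. How the RNAs act on their targets, and whether each population was a pool or 1 clone, is not given in the sources used here.

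KMT2D is a histone methyltransferase that places methyl groups on lysine 4 of histone H3, mainly at enhancers, and its gene is often mutated in lymphomas of mature B cells. FBXW7 recognises the substrates of an SCF-type ubiquitin ligase, which marks proteins such as MYC, cyclin E and NOTCH for degradation. Plasma cells arise from B cells that switch off much of the B cell programme, including CIITA, the coactivator that drives the genes of MHC class II antigen presentation.

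Levels are given as CPM, the count of a gene relative to its library's total, after TMM scaling, a correction for differences in library composition. Library totals lay between 16337492 and 27076242 counts, with both extremes among the KMT2D-guide libraries. Plasma cell markers were present in all 9 libraries, for example IRF4 at 386 to 1141 and TNFRSF17 at 269 to 540 CPM before that scaling. Of 30 marker genes of other cell types, only 2 (HBB and PECAM1) had enough reads to be tested, each other was at or under 0.210 CPM, and the summed level of the list was 34.0, 27.6 and 38.9 CPM with the KMT2D guide against 25.9 to 44.8 without. In these shares of counts the library gFBXW7_gKMT2D 3 stood apart: genes of cytosolic ribosomal proteins took 11.4% (5.09% to 8.70% elsewhere), and the nuclear RNA MALAT1 0.475% (0.0961% to 0.281% elsewhere). In a bulk sample, fewer cells with a transcript and less transcript per cell cannot be told apart.

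Neither targeted gene was among the 411. KMT2D had 48.0, 107 and 28.6 CPM with its guide, against a lowest value of 41.0, a median of 58.7 and a highest of 104 without it. The 3 libraries thus span the whole range of the other 6, and the log2 fold change was -0.03 (standard error 0.38, adjusted p = 1.0). FBXW7 had 46.0, 45.2 and 71.7 CPM against a lowest value of 47.9, a median of 53.6 and a highest of 55.5, a log2 fold change of 0.05 (standard error 0.15, adjusted p = 0.99). Reads counted over a whole gene would not reveal a small edit within it, and how the RNAs act is not given. Whether these values check the labels therefore cannot be told.

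Of the 411 genes, 184 (1.39% of those tested) lay above and 227 (1.71%) below the other 6 libraries, together 3.1%. Since meeting the rule is what chose these genes, the separation itself is a description and carries no test. The same count gave 177 genes (1.34%) for the 3 gLuc libraries and 244 (1.84%) for the 3 gFBXW7 libraries, each against the 6 others, also without a test. With upper quartile scaling in place of TMM, 214 genes lay above and 176 below, and 350 of the genes were shared with the TMM count. On all 4 scales tried (TMM, DESeq2 size factors, upper quartile and the deposited RPKM) 93 genes lay above and 101 below. Most separations were narrow, with a median distance between the nearest libraries of 0.0798 log2 units for the higher and 0.0562 for the lower genes, and 20 genes (0.151%) were at least 0.5 apart. At the edge of the rule, KHDC1 had 4.89, 4.58 and 5.24 CPM against a highest value of 4.58 and was just included, whereas MTFR1L had 25.4, 23.9 and 21.2 against a highest value of 21.2 and was just excluded. On the lower side BLMH, with 83.6, 83.3 and 70.9 CPM against a lowest value of 83.6, was just included, and MEF2D, with 126, 155 and 112 against 155, was not. Adding rows with too few reads to test brought in 150 genes above (1.19% of 12632 such rows with a read) and 30 below (0.237%), and these are not described further.

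A model over all genes with only the presence of the KMT2D guide as a term (edgeR's quasi-likelihood test, Benjamini-Hochberg adjusted over 13262 genes) called 10 genes (0.0754%), 4 higher (0.0302%) and 6 lower (0.0452%). All 10 were among the 411, and the plot of fold change against p shows where they stand among the rest. In all, 663 genes (5%) had an unadjusted p under 0.05. This test reads the same values as the rule, so for the 411 it adds how large a difference was against the spread between libraries, not a second line of evidence.

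**Figure D1:**
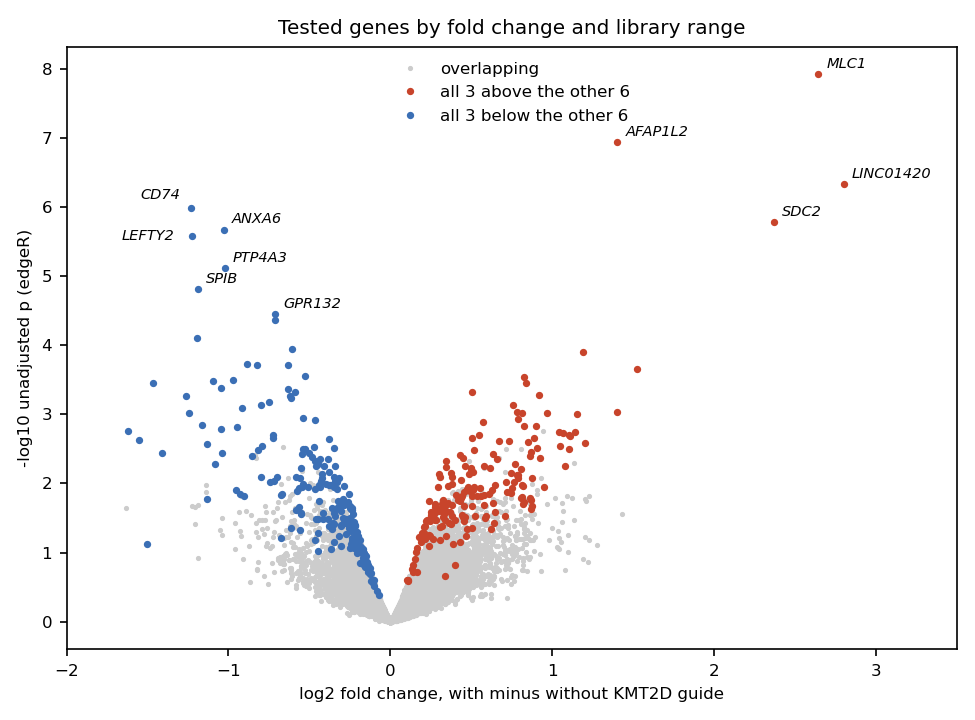
Log2 fold change (with minus without the KMT2D guide, horizontal axis) against -log10 of the unadjusted edgeR p (vertical axis) for the tested genes. Red points are the 184 genes with all 3 KMT2D-guide libraries above the other 6, blue points the 227 with all 3 below, grey points overlap, and the 10 called genes are named.

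The 4 genes that rose were the membrane protein gene MLC1, the syndecan gene SDC2, the signalling adaptor gene AFAP1L2 and LINC01420, the table's name for NBDY, which encodes a microprotein of the mRNA decapping machinery. MLC1 (chr22:50059391-50085875, GRCh38), best known from astrocytes, had 8.48, 10.2 and 7.25 CPM with the KMT2D guide, against 1.27, 1.13 and 1.22 in gLuc and 1.30, 1.67 and 1.73 in gFBXW7. Its mean rose from 1.39 ± 0.250 (SD, n = 6) to 8.65 ± 1.49 CPM (SD, n = 3), or by 2.64 on the log2 scale (standard error 0.17, adjusted p = 0.00016). The lowest KMT2D-guide library lay 2.07 log2 units above the highest of the others. LINC01420, at chrX:56729243-56819179, was scarce, with 29, 44 and 32 counts with the KMT2D guide and between 3 and 6 counts in each of the other 6 libraries. Its log2 fold change was 2.80 (standard error 0.26, adjusted p = 0.0021). Both were too weakly expressed for the naming rule and were picked out once their values were known.

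SDC2, which encodes the heparan sulfate proteoglycan syndecan-2 of the cell surface, had 27.7, 24.9 and 34.7 CPM with the KMT2D guide. It had 3.71, 4.24 and 4.14 CPM in gLuc and 8.16, 5.29 and 8.20 CPM in gFBXW7. The KMT2D-guide libraries were all far above both groups, and the gFBXW7 libraries were in turn all above gLuc. SDC2 rose by 2.37 on the log2 scale (standard error 0.25, adjusted p = 0.0044), and the difference between gFBXW7 and gLuc was 0.84 (standard error 0.21, adjusted p = 0.96). That difference within the pooled baseline was larger for SDC2 than for the other 9 called genes. AFAP1L2, which links SRC-family kinases to PI3-kinase, at chr10:114280725-114405175, had 24.3, 27.3 and 20.7 CPM against a lowest value of 8.37, a median of 9.11 and a highest of 9.88. Its mean rose from 9.14 ± 0.638 (SD, n = 6) to 24.1 ± 3.28 CPM (SD, n = 3), or by 1.40 on the log2 scale (standard error 0.11, adjusted p = 0.00077), and gFBXW7 differed from gLuc by 0.04.

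Among the 6 genes that fell, CD74, ANXA6 and LEFTY2 had the smallest p. CD74, the chaperone of MHC class II molecules also called the invariant chain (chr5:150401639-150412910), had 61.3, 61.3 and 60.9 CPM with the KMT2D guide. Without it, CD74 had 141, 144 and 168 CPM in gLuc and 115, 152 and 143 in gFBXW7. The KMT2D-guide libraries were nearly equal and all well below the lowest of the others, and CD74 fell by 1.23 on the log2 scale (standard error 0.13, adjusted p = 0.0034). ANXA6, which encodes a calcium-dependent membrane-binding annexin, had 17.0, 15.1 and 13.1 CPM against a lowest value of 27.9, a median of 31.6 and a highest of 31.9. It fell by 1.03 (standard error 0.11, adjusted p = 0.0047). LEFTY2, a secreted antagonist of NODAL, had 2.75, 2.92 and 2.73 CPM against 5.71 to 7.50 with a median of 6.57, and fell by 1.22 (standard error 0.14, adjusted p = 0.0050). The nearest libraries of the 2 classes were 0.91 log2 units apart for CD74, 0.72 for ANXA6 and 0.97 for LEFTY2, and LEFTY2 was no longer called without gFBXW7_gKMT2D 1 (adjusted p = 0.059).

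The other 3 genes that fell were PTP4A3, SPIB and GPR132. PTP4A3, a phosphatase of the PRL family, had 9.10, 7.26 and 7.03 CPM against 13.8 to 17.5 with a median of 16.1, and fell by 1.02 (standard error 0.13, adjusted p = 0.013). SPIB, an ETS-family transcription factor of B cells, had 2.53, 2.21 and 2.22 CPM against 4.24 to 6.01 with a median of 5.50, and fell by 1.19 (standard error 0.16, adjusted p = 0.023). GPR132, a G protein-coupled receptor of leukocytes, had 22.6, 20.1 and 24.1 CPM against 33.2 to 39.2 with a median of 36.6, and fell by 0.71 (standard error 0.11, adjusted p = 0.047). In each, the highest KMT2D-guide library stayed below the lowest of the others, and the calls ended without some single libraries. GPR132 was called without gLuc 3 or without gFBXW7_gKMT2D 3 and not without any of the other 7 libraries (adjusted p = 0.12 to 0.34). SPIB was called without gLuc 3 only (adjusted p = 0.061 to 0.12 without each of the other 8). PTP4A3 lost its call without gLuc 1, gLuc 2, gFBXW7 2, gFBXW7 3 or gFBXW7_gKMT2D 2 (adjusted p = 0.051 to 0.10).

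**Figure D2:**
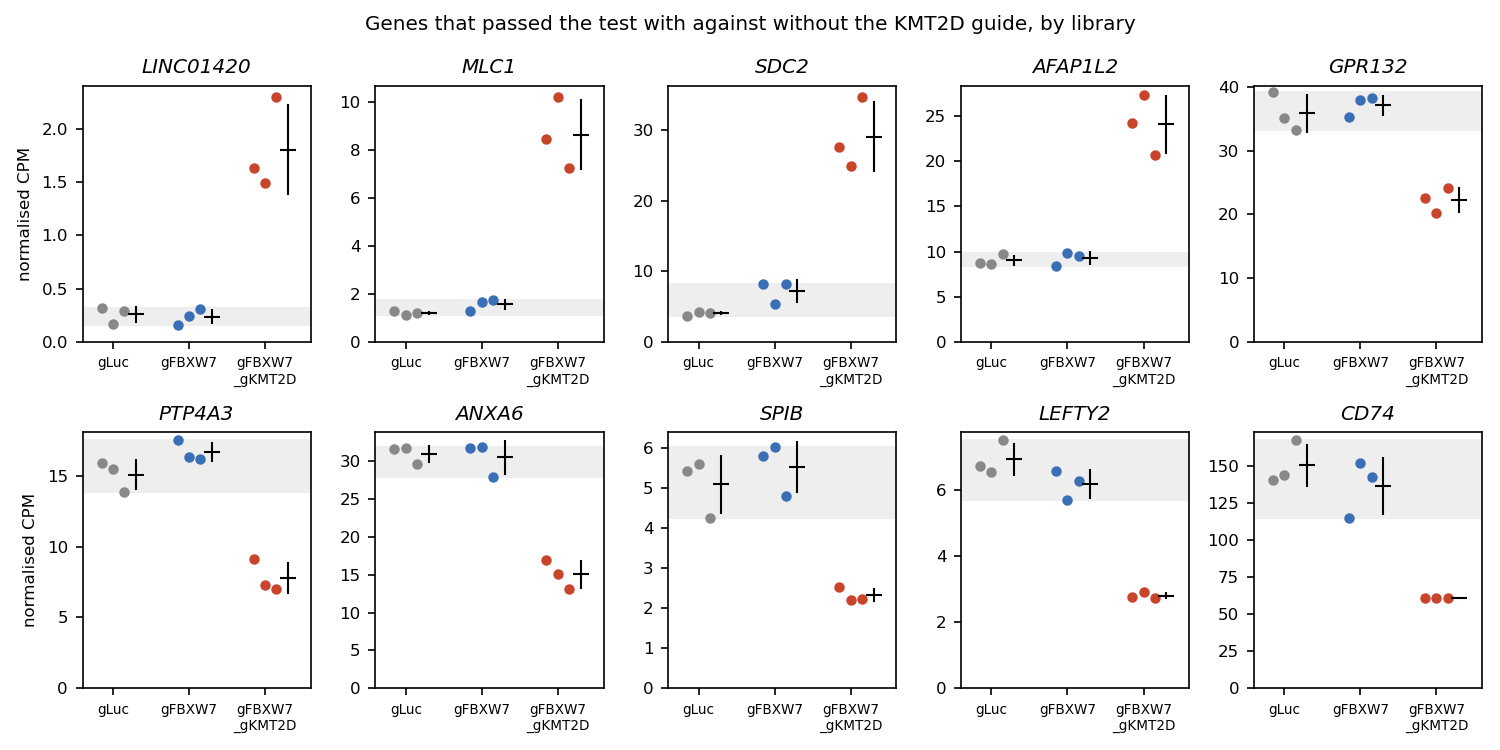
TMM-normalised CPM (vertical axes, from 0, 1 scale per gene) of the 10 called genes in each library, as points by group, where a cross and bar mark each group's mean and its SD (n = 3), and the range of the 6 libraries without the KMT2D guide shaded. All KMT2D-guide points lie outside the shaded band, above it in 4 genes and below it in 6, and the gFBXW7 points of SDC2 lie above those of gLuc.

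The genes of the MHC class II pathway, a list of 21 chosen with earlier results of these data known, lay mostly lower. Of the 15 tested, 5 (33.3%) lay below all 6 other libraries and none above, with CD74 the only one called, against 3.1% outside the range over all tested genes. The median log2 fold change of the list was -0.58 against 0.01 over all tested genes, with 11 members lower and 4 higher. HLA-DRA, the alpha chain of HLA-DR, had 24.8, 25.1 and 15.3 CPM against 38.4 to 63.5 with a median of 48.9, a log2 fold change of -1.19 (standard error 0.19, adjusted p = 0.088). The beta chain gene HLA-DRB1 had 4.94, 4.51 and 7.75 CPM against 8.97 to 12.7 (-0.97, adjusted p = 0.19). HLA-DQB1 had 2.30, 2.10 and 2.58 against 3.31 to 5.03 (-0.80, adjusted p = 0.28). That all 3 HLA genes were lower in every KMT2D-guide library is what the rule chose them by, and none passed the test. Since family members share reads, single HLA values are uncertain.

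CIITA, the coactivator of these genes, lay just below the range, with 7.47, 9.74 and 7.54 CPM against 9.94 to 17.2, a log2 fold change of -0.58 (standard error 0.18, adjusted p = 0.75), and did not lie outside it on all 4 scales. Among the DNA-binding factors it works with, RFX5 (-0.28), RFXAP (0.24), RFXANK (0.00), NFYA (-0.13), NFYB (-0.03) and NFYC (0.04) all overlapped between the groups. HLA-DQA1 (-0.84), HLA-DRB5 (-1.14) and HLA-DPB1 (-0.82) overlapped as well despite fold changes of a similar size. The 16 tested genes of the MHC class I pathway had a median of -0.07, and none lay outside the range.

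Promoters of class II genes carry a CCAAT box bound by NF-Y beside the RFX site, so the 150 bases before the start of the 3 class II genes outside the range that had an entry in the promoter table are shown, from RefSeq on GRCh38.p14, all on the minus strand, with CCAAT or its reverse complement ATTGG in capitals. They lie at chr5:150412911-150413060 for CD74, chr6:32589849-32589998 for HLA-DRB1 and chr6:32666658-32666807 for HLA-DQB1.
CD74: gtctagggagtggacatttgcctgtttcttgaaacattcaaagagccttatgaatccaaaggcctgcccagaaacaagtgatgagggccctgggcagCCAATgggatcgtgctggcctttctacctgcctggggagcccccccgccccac
HLA-DRB1: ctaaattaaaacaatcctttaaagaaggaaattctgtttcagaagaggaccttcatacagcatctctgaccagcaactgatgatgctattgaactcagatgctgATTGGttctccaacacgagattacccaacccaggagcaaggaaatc
HLA-DQB1: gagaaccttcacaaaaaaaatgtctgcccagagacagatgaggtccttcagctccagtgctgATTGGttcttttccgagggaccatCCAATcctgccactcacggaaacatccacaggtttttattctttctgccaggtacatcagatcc
The match began 53 bases before the start in CD74 and 46 bases before it in HLA-DRB1, while HLA-DQB1 had matches 88 and 64 bases before its start. In windows of this length, CCAAT on either strand was present in 24.4% of all 27305 promoters of the table. In the full entries of 300 bases, it was present in 44.5% of the 119 matched promoters of the higher genes and 36.8% of the 174 of the lower genes, against 37.6% of the 9370 matched promoters of tested genes. Among class II genes not among the 411, the full entries of HLA-DPB1, HLA-DMA and HLA-DMB also held a match, and that of HLA-DPA1 did not. A match was thus not particular to genes outside the range. It is a sequence feature only. Whether any marked match is the box beside the RFX site was not tested, and binding was not measured.

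Of 24 mature B cell genes, 11 were tested and 4 (36.4%) lay below the range, namely SPIB, CIITA, BLNK and TCF3, with none above and a list median of -0.19, against 1.71% below the range and 3.1% outside it over all tested genes. BLNK, the adaptor downstream of the B cell receptor, had 2.86, 2.44 and 2.66 CPM against a lowest value of 2.94 (-0.36, adjusted p = 0.98). TCF3, the E2A transcription factor, had a log2 fold change of -0.19 and was not outside the range on all 4 scales. CIITA is also a member of the class II list, and both lists were chosen with earlier results of these data known. The other members of the mature B cell list included 4 that had a positive fold change, among them ID3 (0.82), an inhibitor of E proteins, which overlapped between the groups.

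Other genes below the range that did not pass the test are given singly. VAV1, a guanine nucleotide exchange factor downstream of antigen receptors, had 40.9, 36.6 and 39.8 CPM against 52.5 to 64.0 with a median of 61.4 (-0.61, standard error 0.10, adjusted p = 0.12). LAT, a membrane scaffold of T cell receptor signalling, had 5.17, 4.75 and 6.53 CPM against 8.14 to 14.6 (-1.05, adjusted p = 0.22). IL21R, the interleukin-21 receptor, had 1.80, 1.93 and 2.15 against 2.94 to 3.89 (-0.75, adjusted p = 0.26). VAV1 had the smallest fold change of these 3 and the smallest p. SOCS3, the feedback inhibitor of JAK and STAT signalling and the 1 of 7 lymphoma genes linked to KMT2D outside the range, had 2.25, 2.31 and 1.29 CPM against 3.11 to 4.14 (-0.91, adjusted p = 0.30). That is 14.3% of the list, beside 3.1% over all tested genes. The list had a median of -0.006, with 3 members higher and 4 lower. LAT and IL21R were singled out once their values were known.

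Of 26 tested plasma cell and myeloma genes, 3 lay below and 1 above the range (15.4% in all, against 3.1% over all tested genes), with a median of -0.11. SDC1, the plasma cell marker syndecan-1, had 306, 292 and 239 CPM against 338 to 386 with a median of 363 (-0.38, standard error 0.11, adjusted p = 0.71). The separation was small beside that of SDC2, and SDC1 and SDC2 were the only 2 of 21 tested genes of heparan sulfate proteoglycans and their synthesis outside the range, on opposite sides. GPRC5D, an orphan receptor of plasma cells, had 52.7, 57.1 and 26.7 CPM against 69.1 to 85.9 (-0.79, adjusted p = 0.52). LGALS1, which encodes galectin-1, had 23.6, 13.8 and 19.7 against 25.2 to 56.9 (-1.26, adjusted p = 0.24). MAF, a transcription factor activated by translocations in some myelomas, lay above, with 365, 360 and 446 CPM against 287 to 357 (0.28, adjusted p = 0.93). In SDC1, GPRC5D and MAF the library farthest out was gFBXW7_gKMT2D 3, and in LGALS1 it was gFBXW7_gKMT2D 2. The plasma cell regulators IRF4 (-0.19), PRDM1 (0.17) and XBP1 (-0.16) overlapped between the groups.

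**Figure D3:**
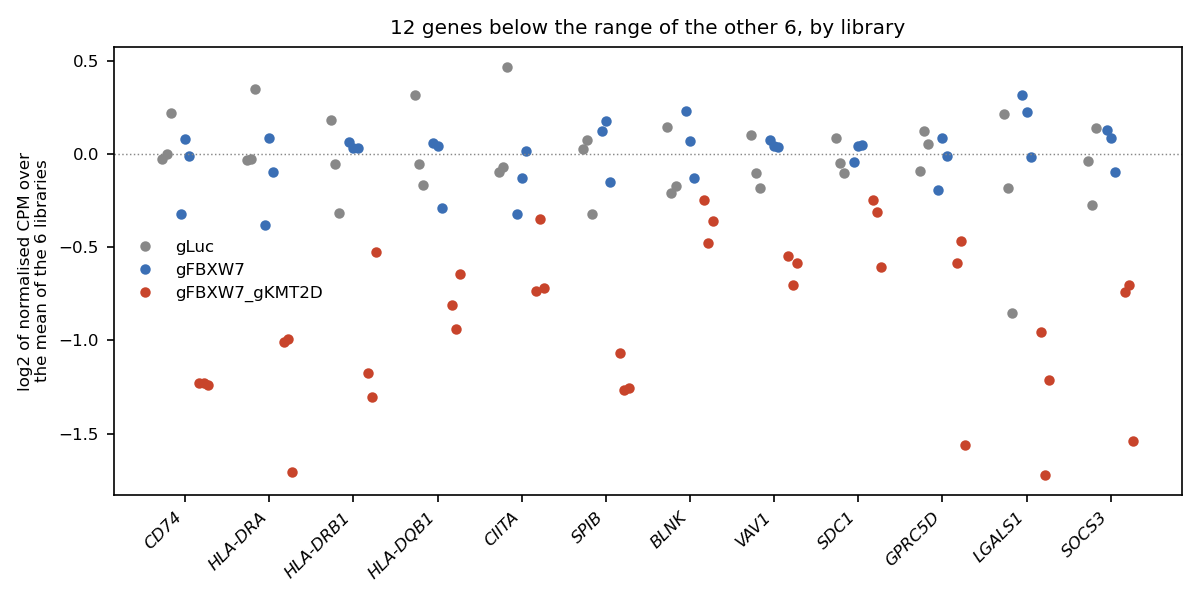
Log2 ratio of the normalised CPM of each library to the mean of the 6 libraries without the KMT2D guide (vertical axis) for 12 genes below the range, by library and group. The 3 KMT2D-guide points lie below the other 6 in every gene, narrowly in CIITA and BLNK, and CD74 and SPIB are the 2 genes of these that passed the test.

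The NODAL, activin and TGF-beta list had 3 of 36 tested genes below the range (8.33%), none above, and a median of -0.02. For this list and the others in the paragraph, the share outside the range over all tested genes was 3.1%. LEFTY1, the neighbour and paralogue of LEFTY2, had 7, 11 and 1 counts against 10 to 22 (-1.55, standard error 0.39, adjusted p = 0.48), so its value rests on few reads and the libraries separate only after scaling, and similar sequence could split reads between the 2 genes. SMAD3, the receptor-activated transducer of the pathway, had 1.46, 2.17 and 1.08 CPM against 2.33 to 2.95 (-0.70, adjusted p = 0.75) and was not outside on all 4 scales. Of 11 tested annexins and S100 genes, 10 had a negative fold change and 1, ANXA6, lay outside the range. Among 26 tested tyrosine phosphatases, PTP4A3 lay below and PTPRC, which encodes CD45, above, the latter with 15, 37 and 14 counts against 4 to 14, which also separate only after scaling (1.20, adjusted p = 0.49). AFAP1L2 was the 1 of 20 tested genes of SRC-family and PI3-kinase signalling outside the range, in a list with a median of -0.11.

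Of the 25 genes of KMT2D complexes and H3K4 methylation, all tested, 1 lay outside the range. This was ASH2L, a core subunit shared by the methyltransferase complexes, with 82.2, 76.4 and 82.1 CPM against 83.7 to 88.9 (-0.10, adjusted p = 0.99). KMT2C (0.11), the close paralogue of KMT2D, and KDM6A (-0.05), the demethylase of the same complex, overlapped. The shares of this list and of those that follow, from 0% to 6.67%, stand beside 3.1% outside the range over all tested genes. None of the 26 genes of the SCF-FBXW7 ligase and its substrates lay outside, with MYC at 0.19, CCNE1 at 0.06 and NOTCH1 at 0.12. NF-kB genes had 0 of 17 tested outside, adhesion and homing receptors 1 of 25 (ITGA3, -0.58), interferon response genes 1 of 22 (OAS1, -1.47), the unfolded protein response 2 of 30 (PDIA6, -0.38, and SSR1, -0.16), and cell cycle genes 1 of 41 (CDC6, -0.26), all lower and none called. OAS1 rested on few reads, with 8, 9 and 6 counts with the KMT2D guide against 14 to 28 without it. PDIA6, SSR1 and CDC6 were not outside on all 4 scales.

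**Figure D4:**
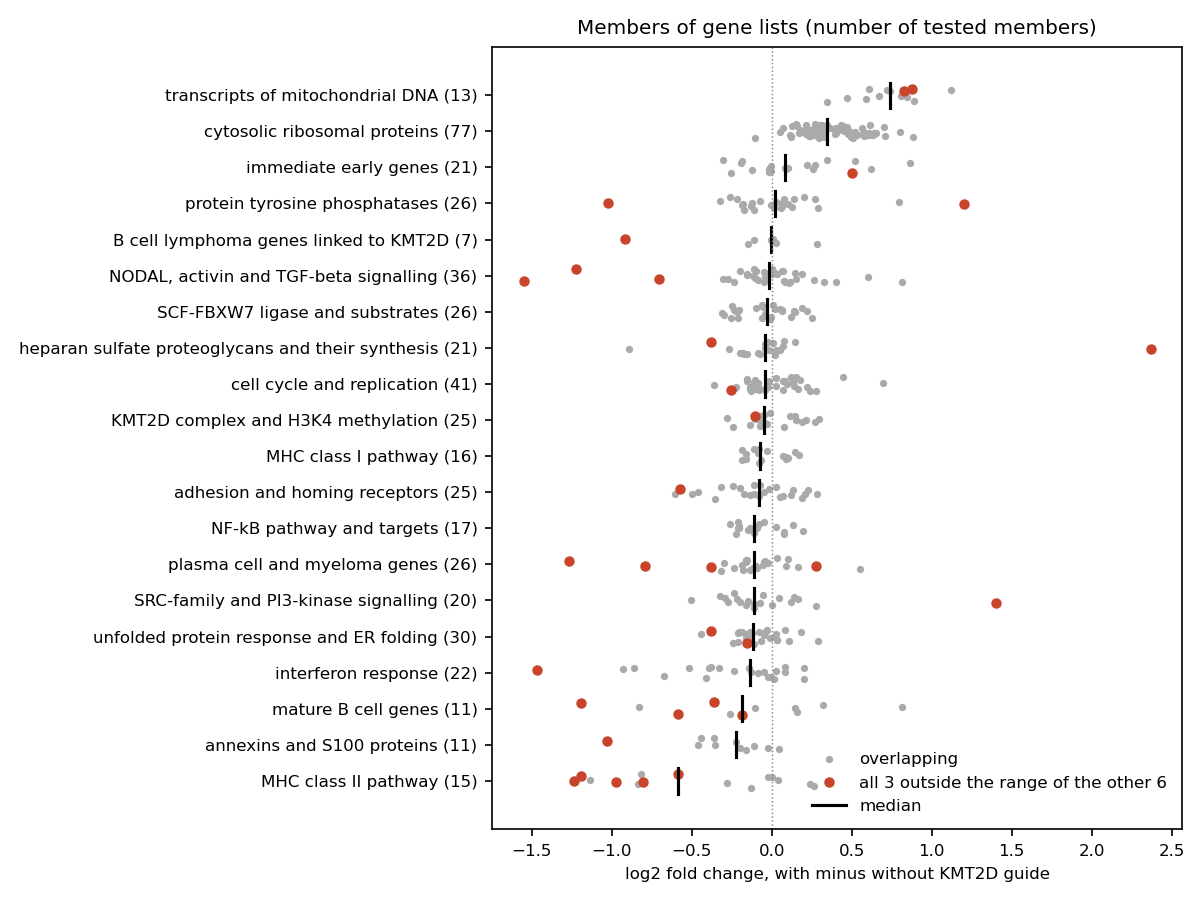
Log2 fold change with minus without the KMT2D guide (horizontal axis) of each tested member of 20 gene lists, ordered by their medians (black bars), with the number of tested members in brackets. Red points are members with all 3 KMT2D-guide libraries outside the range of the other 6, 5 of 15 in the MHC class II list and 2 of 13 among transcripts of mitochondrial DNA.

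On the higher side, fewer genes were well expressed. The genes with the smallest p after the called ones included KCTD17, with 7.08, 5.50 and 6.46 CPM against 2.87 to 4.13 (0.84, adjusted p = 0.19). BTG1, an antiproliferative gene often mutated in B cell lymphoma, had 191, 166 and 197 CPM against 117 to 139 with a median of 133 (0.50, standard error 0.10, adjusted p = 0.22). It was the 1 of 21 tested immediate early genes outside the range (4.76%), beside 3.1% over all tested genes. CSNK2B, the regulatory subunit of casein kinase, had 30.9, 23.5 and 41.4 against 14.9 to 22.2 (0.79, adjusted p = 0.35). BTG1 and KCTD17 were clear of the other 6 libraries, while CSNK2B came close to their highest value. ZMAT1 (0.67), CCNB1IP1 (0.50), SYT1 (0.45) and the non-coding RNA DANCR (0.43) had adjusted p between 0.47 and 0.58. RPL23P8 (0.55), NPIPA1 (0.87) and LOC102724993 (0.90) belong to near-identical copies or could not be placed in the annotation used here, and their values are uncertain. SYT1 and NPIPA1 were not outside the range on all 4 scales. CYTIP, an adaptor of leukocyte adhesion singled out once its values were known, had 24, 36 and 15 counts against 5 to 13 (1.52, adjusted p = 0.16).

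The lower genes next by p included ADAM8 (-0.71, adjusted p = 0.052), a cell surface protease with 9.04, 8.69 and 9.69 CPM against a lowest value of 13.6, followed by HVCN1 (-0.63, adjusted p = 0.15), a proton channel of B cells, with a highest value of 27.1 CPM against a lowest of 34.0. AQP3, a water and glycerol channel, had 68.2, 63.9 and 92.4 CPM against 109 to 149 (-0.82, adjusted p = 0.15). PRKAG3, a regulatory subunit of AMP-activated kinase, had 13.5, 15.5 and 13.2 against 19.4 to 21.0 (-0.53, adjusted p = 0.19). None of these 4 overlapped the other 6 libraries, which the rule fixed, and none passed the test.

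Transcripts of mitochondrial DNA had a median of 0.74, all 13 positive, but only ND6 (0.82, adjusted p = 0.90) and COX2 (0.87, adjusted p = 0.91) lay above the range. That is 15.4%, beside 3.1% outside the range over all tested genes, and COX2 was not outside on all 4 scales. The share of counts from mitochondrial DNA was 3.63%, 3.67% and 2.04% with the KMT2D guide, 1.64%, 3.02% and 3.33% in gLuc and 0.638%, 1.52% and 1.54% in gFBXW7, so the pooled baseline joins 2 unlike groups here. Cytosolic ribosomal protein genes had a median of 0.35 with 76 of 77 positive, and none lay outside the range. Their share of counts was 8.18%, 5.53% and 11.4% with the KMT2D guide. It was 8.36%, 6.24% and 5.09% in gLuc and 8.70%, 7.57% and 6.89% in gFBXW7, so only gFBXW7_gKMT2D 3 lay above the other 6. The median log2 fold change of gFBXW7 against gLuc in these genes was 0.24. The part of the ribosomal and mitochondrial shares in the results above was not tested.

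As sets, the higher and lower genes differed in level and kind. The 184 higher genes had a median level of 1.71 log2 CPM and the 227 lower genes of 4.81, against 4.58 over all tested genes. Long non-coding RNAs made up 14.8% of the annotated higher genes, 3.13% of the lower and 7.38% of all tested. The median fold change was 0.49 for the higher genes, of which 17 had a fitted difference of at least 2-fold, and -0.34 for the lower, with 21 at that size. The library farthest out was gFBXW7_gKMT2D 3 in 101 (54.9%) of the higher and 141 (62.1%) of the lower genes, against 41.2% and 44.3% over all tested genes as the highest or lowest of the 3. Without that library 554 genes lay above and 454 below, with only 2 libraries left that had to lie outside.

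The 6 libraries used as the baseline were compared with each other for these genes. In gFBXW7 against gLuc, edgeR called 0 of all 13262 genes (0%), with 209 (1.58%) at an unadjusted p under 0.05, and 3 of the 184 higher and 2 of the 227 lower genes were among those 209. The gFBXW7 mean lay on the same side of gLuc as the KMT2D-guide libraries in 88 (47.8%) of the higher and 92 (40.5%) of the lower genes, and over all tested genes it lay above gLuc in 49.3%. Against each of the 2 baseline groups taken alone, all 411 kept their sign, which the choice of genes fixes. For MLC1 the 2 comparisons, which share the KMT2D-guide libraries, gave log2 fold changes of 2.47 against gFBXW7 and 2.84 against gLuc. They gave 2.01 and 2.85 for SDC2, 1.38 and 1.42 for AFAP1L2, -1.16 and -1.30 for CD74, and -1.25 and -1.13 for SPIB. SPIB (edgeR adjusted p = 0.083 and 0.17) and GPR132 (0.20 and 0.25) were called in neither comparison. PTP4A3 was not called against gLuc (adjusted p = 0.11). The other called genes were called in both.

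Some of the genes lay close together in the genome. On chromosome 5, CD74 and ANXA6 flank a stretch (chr5:150401639-151157779) in which SYNPO (-1.62, adjusted p = 0.43) and TNIP1 (-0.38, adjusted p = 0.82) also lay below the range, 4 of the 8 tested genes there. HLA-DRA, HLA-DRB1 and HLA-DQB1 were 3 of 5 tested genes in chr6:32439887-32666657. EPHX1 (-0.34), LEFTY1 and LEFTY2 were 3 of 5 in chr1:225810124-225941220. IL4R (-0.21) and IL21R were both of the tested genes in chr16:27313756-27452042. Next to SDC2, the carboxypeptidase gene CPQ had 4.49, 5.06 and 4.31 CPM against 2.23 to 3.21 (0.83, standard error 0.16, adjusted p = 0.19), and both tested genes of that stretch lay above. Chromosome 17 held 26 genes below and 3 above of 745 tested (3.49% and 0.403%), and chromosome 20 held 11 above and 8 below of 317 (3.47% and 2.52%). Over all tested genes 1.39% lay above and 1.71% below. Each stretch of neighbouring genes was drawn to start and end at genes outside the range, which raises its count. These stretches and chromosomes were picked after the values were seen, and none was tested.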

How the data were processed

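Messenger RNA was sequenced from 9 libraries, 3 per group, as poly(A)-selected, strand-specific dUTP libraries, per the labels' protocols. The authors' tools were STAR, featureCounts, Trimmomatic and DESeq2 on build GRCh38, per the submitters' processing notes, which give no versions. The authors deposited whole-number read counts and RPKM per gene, per the file headers. RPKM recomputed from counts, gene lengths and totals differed by at most 8.5e-07. An unnamed row holding column totals and 28 rows with a number for a symbol were not named, which left 38450 rows, 12574 without a read. Total counts were 16337492 to 27076242 per library, and no library repeated another.

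Counts were fitted with edgeR 4.0.16 in R 4.3.3 with 2 classes, 3 libraries with the KMT2D guide and 6 without, after filterByExpr and TMM scaling, and tested with glmQLFTest, Benjamini-Hochberg adjustment and a threshold of 0.05. P-values set a difference against the spread between libraries labelled as biological replicates. Since gLuc and gFBXW7 share a mean in this model, that spread also holds any difference between these groups. For SDC2 the standard error was 0.25 in this model and 0.16 with the 3 groups as terms. Each standard error was the size of the log2 fold change divided by the root of F. The range rule was applied to TMM-scaled CPM. Named genes were both targeted genes, up to 12 per direction outside the range (called genes first, then by p, mean log2 CPM at least 2), up to 3 members outside the range per list, and 2 on each side of the edge. All other genes in the text, such as further list members, genes at least 0.5 log2 apart and neighbouring genes, were named after their values were seen. Members and the 21 gene lists were chosen with earlier results of these data known. Symbols were matched to RefSeq for coordinates (386 of 411). Alternatives were other scalings and filters, the DESeq2 1.42.0 Wald test, limma 3.58.1 on counts (voom) and on log2 of RPKM plus 1, the 3 groups as terms, 1 surrogate variable (sva 3.50.0), the replicate block, glmTreat and each library left out. The pipeline was also run on simulated counts, drawn independently for each gene with a shared mean for the 6 libraries without the guide. Such counts lack variation shared across genes, so that run cannot vouch for the calls or the range counts. Figures used matplotlib 3.10.9 under Python 3.11.15.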

Additional observations from a re-analysis of the deposited data

Results flagged for a closer look

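Each of 63 named genes was checked for 1 of the 6 libraries without the KMT2D guide standing far from the other 5, which chance gives in about 1 in 20 genes, and 3 did. CIITA had 17.2 CPM in gLuc 3 against 9.94 to 12.6 in the other 5. The highest library sets the upper end of the range and not the lower end, on which the place of CIITA below it depends. GALNT11, which encodes a glycosyltransferase and lay above the range, had 0.159 CPM in gLuc 1 against 0.324 to 0.416. LOC102724351, also above the range, had 0.297 CPM in gFBXW7 2 against 0.486 to 0.583. For both of these the library lies away from the end of the range that the KMT2D-guide libraries passed.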

How the results depend on the processing

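Of 10 called genes, MLC1, AFAP1L2, SDC2, CD74 and ANXA6 were called under all 21 alternatives that refitted the genes at the same threshold (glmTreat and the threshold of 0.01 aside) and LINC01420 under the 20 of these that tested it, while GPR132 was called under 7, SPIB under 10, PTP4A3 under 15 and LEFTY2 under 20. The counts of 4 higher and 6 lower calls became 12 and 31 with DESeq2 and 51 and 109 with 1 surrogate variable. The lower count was 10 with limma on RPKM, 3 against gLuc alone, 3 at an adjusted p under 0.01 and 0 with glmTreat at a fold change of 1.5 (4 higher, with 76 genes at an unadjusted p under 0.05). With single libraries left out, 4 to 5 genes were called higher and 3 to 8 lower. It was 3 without gLuc 1, gLuc 2, gFBXW7 2, gFBXW7 3, gFBXW7_gKMT2D 1 or gFBXW7_gKMT2D 2. Of the 184 genes above and 227 below, 12 and 8 were at least 0.5 log2 apart, 93 and 101 were outside on all 4 scales (a count chosen after seeing the data), and on raw counts 19 lay below. Leaving out single libraries gave 219 to 871 above and 249 to 926 below, the largest without gFBXW7_gKMT2D 2, and 390 and 491 without gFBXW7_gKMT2D 1. Without gFBXW7_gKMT2D 2, 2061 of 13334 tested genes had an unadjusted edgeR p under 0.05, against 663 of 13262 with all 9 libraries. The number was 759 of 13461 without gFBXW7_gKMT2D 1 and 699 of 13455 without gFBXW7_gKMT2D 3. Same-numbered libraries correlated at -0.586 to 0.454, over 0.1 in 4 of 9 pairs, and 4 of 9 libraries correlated best with their own number. Pairs from different groups with unlike numbers correlated at -0.735 to 0.72, the highest being gLuc 3 with gFBXW7_gKMT2D 2. With 3 libraries per group, whether same-numbered libraries share more than a number cannot be told from this. With the replicate block 4 genes were called higher and 5 lower, GPR132 being lost (adjusted p = 0.21). Neither targeted gene was called, and their signs turned: FBXW7 to -0.027 with limma on RPKM, -0.0081 against gFBXW7 alone, -0.042 with 1 surrogate variable and -0.19 without gFBXW7_gKMT2D 3, and KMT2D to 0.091 against gFBXW7 alone, 0.032 with 1 surrogate variable, 0.18 without gLuc 3, 0.12 without gFBXW7_gKMT2D 1 and 0.31 without gFBXW7_gKMT2D 3 (with single libraries left out, -0.19 to 0.17 for FBXW7 and -0.71 to 0.31 for KMT2D). The other 61 named genes kept their direction wherever tested, and the cause of these differences was not tested. Depth limits genes of few reads most, LINC01420, LEFTY1 and OAS1 among those named.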
